A study of Mus musculus with 2 samples.

Results

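The large olfactory receptor cluster of mouse chromosome 9 was examined in RNA-seq data of the olfactory epithelium, where the odour-sensing neurons of the nose lie. Its members were the entries of the authors' table whose locus lies on chromosome 9 with a start between 37.4 and 40.1 Mb (mm9), apart from Olfr151 and Olfr160, which were set aside. This left 97 of the 1112 Olfr entries, spanning 2.44 Mb from Olfr874 (start 37553721) to Olfr986 (end 39995679). The study holds 2 samples of adult C57BL/6 olfactory epithelium. Titles and genotype labels call both wild type, but 1 sample is described as wt and the other as 3bko, a term that the sources used here do not explain. The table gives 1 FPKM value per entry (a fragment count divided by gene length and by library size). Every entry also carries wt and 3bko as the names of its 2 samples, and the value is not tied to either. It may belong to wt, to 3bko or to both combined. Every level below is therefore the authors' single value, without replicates, and differences between receptors were described and not tested. In whole tissue, fewer neurons expressing a receptor and less receptor RNA per neuron cannot be told apart. The table holds receptor genes only, so markers of neurons or of other nasal cells were not available to check the tissue label.

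Olfactory receptors are G protein-coupled receptors that bind odorants on the cilia of sensory neurons. Each mature neuron expresses a single allele of a single receptor gene, and the axons of neurons with the same receptor converge on shared glomeruli of the olfactory bulb. The genes lie in tandem clusters that grew by local duplication, so neighbours are often close relatives. Mouse receptors carry MOR names, in which receptors of similar protein sequence share a family number. All members with a MOR name belong to families of class II, the class that makes up most of the mammalian repertoire.

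Receptor levels in the cluster were low. The median FPKM was 0.465 (interquartile range 0.200 to 0.936), against 1.17 (0.418 to 3.27) over the other 1015 Olfr entries. Of the 97 members, 22 (22.7%) had an FPKM of at least 1, a level reached by 52.5% of all Olfr entries. An FPKM of 5 was reached by 3 members (3.09%) and by 14.3% of all entries, and 13 members (13.4%) lay below 0.1, as did 8.63% of all entries. The highest member, Olfr912, ranked 121 among all 1112 entries. The cluster made up 8.72% of the table's entries but 2.84% of its summed FPKM. Within it, the 5 highest members carried 29.2% of the cluster's sum, and the 13 highest carried 51.2%. The status NOTEST, a flag in the table, marked 29 members (29.9%) and 18.3% of all entries, and the highest member with it was Olfr143 at an FPKM of 0.291.

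Beside the cluster, the values of 2 other clusters were taken from the same table. The proximal cluster of chromosome 9 (start 18559136 to end 20140538, 36 entries) had a median FPKM of 0.886, with 47.2% of its entries at 1 or more. The class I cluster of chromosome 7 (109625287 to 112517831, 124 entries) had a median of 0.472, with 21.0% at 1 or more. The chromosome 9 large cluster thus had nearly the same median and share as the class I cluster, and lower ones than its neighbour on the same chromosome. These differences were not tested.

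The 12 highest members had FPKM values from 1.73 to 6.08. Olfr912 (chromosome 9, 38387829 to 38389796) had an FPKM of 6.08. It was followed by Olfr972 (39680862 to 39681806) at 5.30 and Olfr969 (39602962 to 39603897) at 5.28. Olfr910 (38345467 to 38347414) had 4.32, Olfr921 (38580673 to 38583939) had 3.59 and Olfr943 (38973895 to 38992709) had 3.53. The next were Olfr974 at 2.78, Olfr914 at 2.77 and Olfr984 at 2.37. Olfr1537-ps1 at 1.86, Olfr884 at 1.76 and Olfr887 at 1.73 completed the 12 highest. An entry that combines Olfr242 and Olfr27 in 1 locus (38935752 to 38952655) came next at 1.70, and its value cannot be divided between the 2 receptors. Of the 12 highest, 5 belong to MOR171, which has 35 of the 97 members and also 5 of the 13 below 0.1. MOR165, with 9 members, gave 4 of the 12, MOR162, with 10 members, gave 2, and Olfr984 is the only MOR239 member of the cluster. Olfr1537-ps1 is named as a pseudogene, yet the GENCODE transcript matched to it holds an open coding sequence.

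The lowest members came from 8 families. Olfr891 (37987456 to 37988406) and Olfr908 (38323619 to 38324550), the latter typed as a transcribed pseudogene in RefSeq, were listed at 0. Olfr883 had 0.00288, and Olfr915 followed at 0.0258. Olfr926 at 0.0262, Olfr980 at 0.0264, Olfr936 at 0.0315 and Olfr26 at 0.0315 were next. All 13 members below 0.1 had the status NOTEST, and 9 of them have a single annotated exon. Among all Olfr entries, 62 of the 96 below 0.1 have a single annotated exon, a like share.

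Receptors with higher and lower levels were spread along the whole cluster. In 5 successive groups of 19 or 20 members, the medians were 0.434, 0.405, 0.509, 0.465 and 0.604. High and low members were found in each. The first group, Olfr874 to Olfr25, ran from Olfr891 at 0 to Olfr884 at 1.76. The second, Olfr898 to Olfr918, ran from Olfr908 at 0 to Olfr912 at 6.08. The third, Olfr919 to Olfr944, ran from Olfr926 at 0.0262 to Olfr921 at 3.59, and the fourth, Olfr1537-ps1 to Olfr150, from Olfr952 at 0.0531 to Olfr1537-ps1 at 1.86. The fifth, Olfr967 to Olfr986, ran from Olfr980 at 0.0264 to Olfr972 at 5.30 and held 7 of the 22 members at an FPKM of 1 or more, where each of the others held 3 or 4. The Spearman correlation of FPKM with position was 0.0927 across the 97 members, which share libraries and annotation. Among the 71 members with at least 80% of their coding 50-mers found in no other Olfr transcript it was 0.202. Both are given as descriptions.

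**Figure D1:**
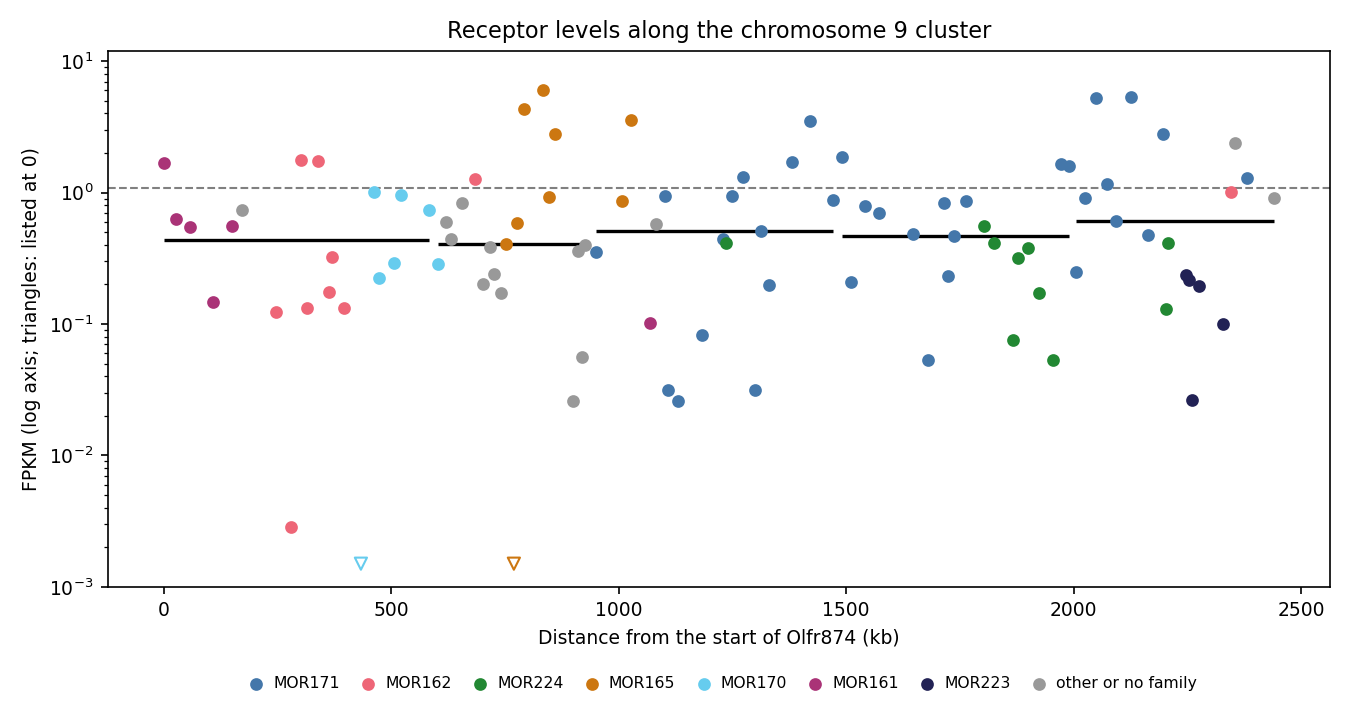
FPKM of each of the 97 members (log axis) against its distance in kb from the start of Olfr874, coloured by MOR family. Black lines are the medians of 5 successive groups of members (0.405 to 0.604), the dashed line is the median of all Olfr entries (1.09), and open triangles mark Olfr891 and Olfr908, listed at 0; each group holds high and low members.

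The longest unbroken run of members at an FPKM of 1 or more had 3 receptors, Olfr983 at 1.01, Olfr984 at 2.37 and Olfr985 at 1.28, near the distal end. The longest run below 1 had 16 members, from Olfr945 to Olfr149 (39065305 to 39510352), with values from 0.0531 to 0.864. It includes the widest gap between members, 74.2 kb from Olfr948 at 0.696 to Olfr951 at 0.484, where the median gap was 20.5 kb. At the ends of the cluster stood Olfr874 at 1.68 and Olfr986 at 0.912. The acetophenone receptors that were set aside lie just before Olfr874, and Olfr160 (M72) had an FPKM of 1.79 and Olfr151 (M71) 0.164. Of their coding 50-mers, 59.6% in Olfr160 and 59.7% in Olfr151 occur in no other Olfr transcript. How reads were assigned to each of these receptors is therefore uncertain. RefSeq lists Olfr151 among transcribed pseudogenes, its model has 1 annotated exon, and its value was flagged NOTEST.

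The median levels of the larger families ran from 0.195 to 0.920. Of the 14 families found among the members, 7 had at least 5 members, 82 receptors in all. By median FPKM the order was MOR165 (0.920), MOR171 (0.787), MOR161 (0.550), MOR224 (0.346), MOR170 (0.291), MOR162 (0.250) and MOR223 (0.195). The ranges of all 7 families overlapped. Among members with 2 or more exons the MOR162 median was 0.665 (8 members), which moved the family to the third place, and MOR170, at 0.515 (6 members), passed MOR224. MOR165 was then at 1.85, MOR171 at 0.873, MOR161 at 0.544, MOR224 at 0.346 and MOR223 at 0.206. All members of MOR161, MOR162, MOR165, MOR170 and MOR224 in the table lie in this cluster, so for these 5 the family and its position cannot be told apart.

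**Figure D2:**
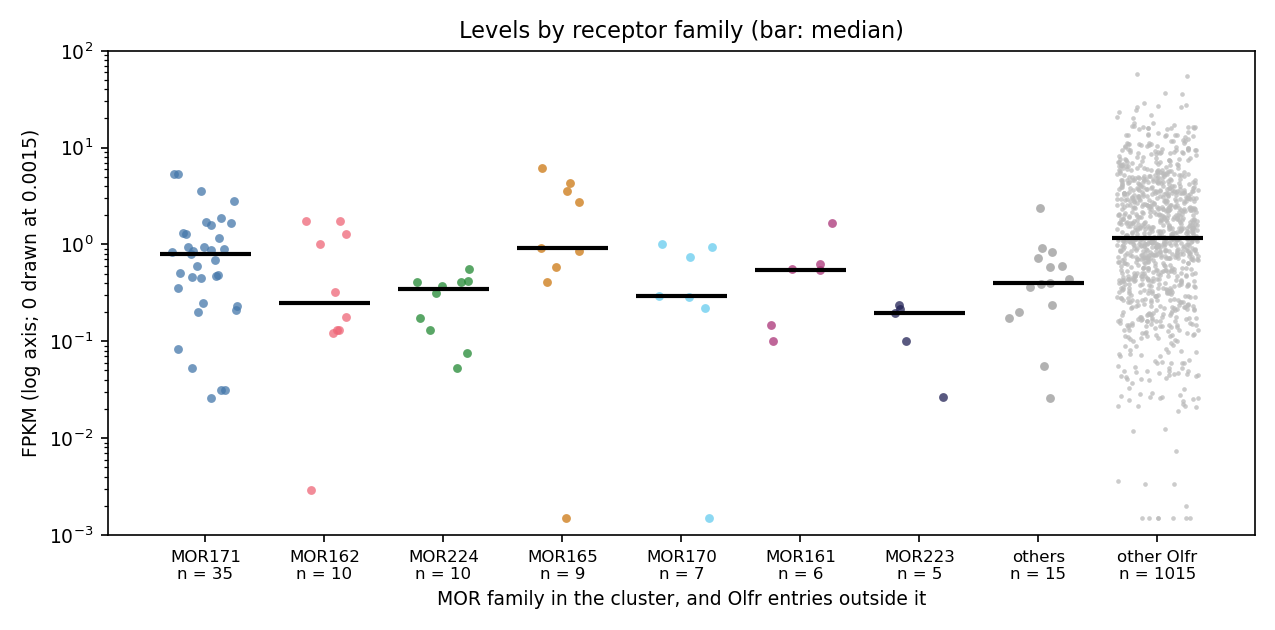
FPKM (log axis, with 0 drawn at the bottom) of the members of each MOR family with at least 5 members, of the 15 remaining members, and of the 1015 Olfr entries outside the cluster. Each point is 1 entry and bars are medians, which for the 7 families lie between 0.195 and 0.920, below the 1.17 of the entries outside.

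MOR165 had the highest family median and the widest range. Its 9 members lie between 38306256 and 38583939. They run in order from Olfr907 at 0.407, Olfr908 at 0, Olfr911-ps1 at 0.590 and Olfr910 at 4.32 to Olfr912 at 6.08, Olfr913 at 0.920 and Olfr914 at 2.77, followed after an interval by Olfr920 at 0.856 and Olfr921 at 3.59. Values of 2.77 or more thus stood next to values below 1 in the same short stretch. Olfr908 is typed and Olfr911-ps1 named as a pseudogene, and Olfr911-ps1 also carries a MOR166 name. RefSeq types Olfr911-ps1 as protein coding. Without Olfr908 the median of MOR165 was 1.85 over 8 receptors, and without both it was 2.77 over 7.

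The 2 highest MOR165 receptors are also nearly identical. The proteins of Olfr910 and Olfr912 share 96.5% of their residues, and their coding sequences differ at 37 of 930 bases. The 60 coding bases where they differ most, with 9 differences, are shown here (bases 628 to 687 of each, counted from the start codon in GENCODE M21 transcripts). Within the coding sequence, reads of the pair are easiest to tell apart there. Capitals mark the positions that differ.
Olfr910: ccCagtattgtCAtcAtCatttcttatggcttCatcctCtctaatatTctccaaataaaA
Olfr912: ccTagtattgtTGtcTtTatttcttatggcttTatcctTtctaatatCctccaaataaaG
Elsewhere the pair shares an unbroken run of 272 coding bases. Only 60.7% of the coding 50-mers of Olfr910 and 60.8% of those of Olfr912 were found in no other Olfr transcript, so the split of reads between them, at FPKM values of 4.32 and 6.08, is uncertain. Olfr921, at 3.59, and Olfr913, at 0.920, had 100% of such 50-mers.

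Of the 5 MOR165 receptors with a locus longer than 1500 bp, Olfr910, Olfr912 and Olfr913 are neighbours, at 4.32, 6.08 and 0.920. The last value equals the family median and lies above the cluster median of 0.465. The 250 bases before their annotated starts are shown so that the regions before the 2 highest MOR165 receptors and before their neighbour can be read together. They come from RefSeq (GRCm38.p6, plus strand). They lie at chr9:38537632-38537881 for Olfr910, chr9:38579994-38580243 for Olfr912 and chr9:38592553-38592802 for Olfr913. Capitals mark matches on either strand to TATAAA.
Olfr910: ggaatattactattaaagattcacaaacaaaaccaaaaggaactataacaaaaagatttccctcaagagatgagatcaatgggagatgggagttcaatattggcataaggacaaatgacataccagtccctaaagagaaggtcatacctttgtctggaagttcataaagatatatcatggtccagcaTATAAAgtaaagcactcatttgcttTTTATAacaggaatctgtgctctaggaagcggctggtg
Olfr912: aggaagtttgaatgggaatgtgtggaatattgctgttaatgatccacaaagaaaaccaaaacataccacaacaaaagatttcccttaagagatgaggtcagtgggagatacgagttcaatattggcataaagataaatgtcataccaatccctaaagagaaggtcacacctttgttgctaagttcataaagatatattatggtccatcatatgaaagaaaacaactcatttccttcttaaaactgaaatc
Olfr913: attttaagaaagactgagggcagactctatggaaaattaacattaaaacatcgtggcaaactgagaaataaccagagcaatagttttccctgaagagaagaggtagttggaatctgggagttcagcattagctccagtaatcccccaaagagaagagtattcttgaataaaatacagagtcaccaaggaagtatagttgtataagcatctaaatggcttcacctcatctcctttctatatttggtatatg
The sequences of Olfr910 and Olfr912 were 70.1% identical over their alignment, and that of Olfr913 was 50% identical to the first and 56.2% to the second. For Olfr921, at an FPKM of 3.59, these identities were 52.6% and 50.7%, and for Olfr920, at 0.856, they were 45.4% and 44.8%. Whether likeness of these windows goes with level was not tested. TATAAA was found at bases -63 to -58 and -38 to -33 before the start of Olfr910, at -55 to -50 before that of Olfr921, and in none of the windows of Olfr912, Olfr913 and Olfr920. A match is a description of these letters and not a binding site.

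Windows of this kind were available for 74 of the 97 members. In 49 of the 74 (66.2%) the annotated start is an ATG triplet, so those windows end where the coding sequence may begin and need not reach the transcription start. TATAAA occurred in 37.8% of the members' windows, 39.3% of the windows of 944 Olfr genes and 13% of all 27025 windows in the table. TAATTA, the core letters of many homeodomain sites, occurred in 16.2%, 18.1% and 4.90%. CCCNNGGG, the core letters of sites for the Ebf factors of olfactory neurons, occurred in 2.70%, 2.75% and 11.7%. Both strands were searched, and TAATTA and TATAAA can overlap. Members with TATAAA had a median FPKM of 0.456 and those without it 0.410. For TAATTA the medians were 0.447 and 0.431, and for CCCNNGGG, which only 2 members hold, 0.919 and 0.413.

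MOR171 was the largest family, with 35 members between 38505014 and 39935624. Its FPKM values ran from 0.0262 for Olfr926 to 5.30 for Olfr972, and 11 of the 35 were at 1 or more. Genes of other families interrupt MOR171 at Olfr920 to Olfr923, at Olfr934 and at Olfr975 to Olfr984. A further interruption is a block of 7 MOR224 genes, from Olfr958 to Olfr149. The 24 MOR171 members before that block had a median FPKM of 0.496, with 4 (16.7%) at 1 or more. The 11 members after it had a median of 1.28, with 7 (63.6%) at 1 or more, beside 1.09 and 52.5% over all Olfr entries. This division was chosen after the values were seen. Single-exon models numbered 5 of the 24 and 0 of the 11, and the median of the first set without them was 0.787. The median share of unique coding 50-mers was 86.0% in the first set and 97.3% in the second. The part of exon number and of shared sequence in this difference was not tested.

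The distal MOR171 stretch held 3 of the 12 highest members. From Olfr965 to Olfr974, 10 MOR171 genes follow each other. Olfr965 had 1.66, Olfr150 1.58, Olfr967 0.248, Olfr968 0.907 and Olfr969 5.28. The next receptors were Olfr970 at 1.17, Olfr971 at 0.604, Olfr972 at 5.30, Olfr229 at 0.473 and Olfr974 at 2.78. The 3 highest of these, Olfr969, Olfr972 and Olfr974, each stood next to a value several times lower. Earlier in the cluster, 5 MOR171 genes from Olfr924 to Olfr933 had a median of 0.0830, and there Olfr924 at 0.940 was the highest.

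MOR224 and MOR223 were low throughout. None of the 10 MOR224 members reached an FPKM of 1, and their values ran from 0.0535 for Olfr149 to 0.553 for Olfr958. None of the 5 MOR223 members exceeded 0.236, the level of Olfr978. Olfr979 had 0.217, Olfr981 0.195, Olfr982 0.10 and Olfr980 0.0264. The other 4 MOR223 entries in the table lie on chromosome 14 and had a median of 1.12. Single-exon models numbered 0 of 10 in MOR224 and 1 of 5 in MOR223, beside 13 of the 97 members.

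MOR161, MOR162 and MOR170 lie mostly at the proximal end. The 10 MOR162 members fell into low and higher values. Olfr884 at 1.76, Olfr887 at 1.73, Olfr901 at 1.28 and Olfr983 at 1.01 were above 1, and the other 6 ran from 0.00288 for Olfr883 to 0.323 for Olfr889. The 7 MOR170 members had a range from 0 for Olfr891 to 1.01 for Olfr893, and without Olfr891 their median was 0.515. Among the 6 MOR161 members, Olfr874 at 1.68 was highest and Olfr922 at 0.101 lowest. Of 4 receptors listed for earlier ligand work, Olfr983 had 1.01, Olfr913 0.920, Olfr145 0.556 and Olfr961 0.376. The 13 members of the smaller families had a median of 0.388, and the 2 without a family name, Olfr899 and Olfr900, had 0.592 and 0.443.

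Adjacent receptors of the same family differed about as much as receptors of the same family farther apart. Which of the 2 differed more depended on the constant added to FPKM. The median absolute difference on the log2(FPKM + 0.1) scale was 1.24 over the 96 pairs of adjacent members. It was 1.40 for 68 adjacent pairs of the same family, 1.08 for 25 adjacent pairs of different families, 1.43 for 709 pairs of the same family farther apart and 1.40 for 3663 pairs that shared neither. Pairs with a receptor of no family name were left out of these classes. The steepest steps between neighbours were from Olfr914 at 2.77 to Olfr915 at 0.0258, from Olfr921 at 3.59 to Olfr922 at 0.101 and from Olfr883 at 0.00288 to Olfr884 at 1.76.

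Receptors with nearly the same protein had like levels in some pairs and unlike levels in others. Translated coding sequences were available for 91 members. Of these, 32 had a relative of at least 90% identity in the cluster, in 20 pairs. The higher of the pair had a median of 2.57 times the FPKM of the lower, 8 pairs were within 2-fold and 6 differed by 5-fold or more. Some receptors, such as Olfr960 and Olfr980, are in more than 1 pair, so the pairs are not separate observations. For some, few coding 50-mers were unique, as for Olfr955 (44.3%) and Olfr952 (47.9%), so the split of reads within such pairs is uncertain. Olfr924 and Olfr926, at 95.1% identity, had 0.940 and 0.0262, and Olfr933 and Olfr26, also at 95.1%, had 0.446 and 0.0315. The lower receptor of both pairs has a single annotated exon and the higher has more than 1. Among the other pairs that differed by 5-fold or more, this held for Olfr884 and Olfr885. It did not hold for Olfr979 and Olfr980, Olfr978 and Olfr980, or Olfr968 and Olfr972, where both receptors have more than 1.

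**Figure D3:**
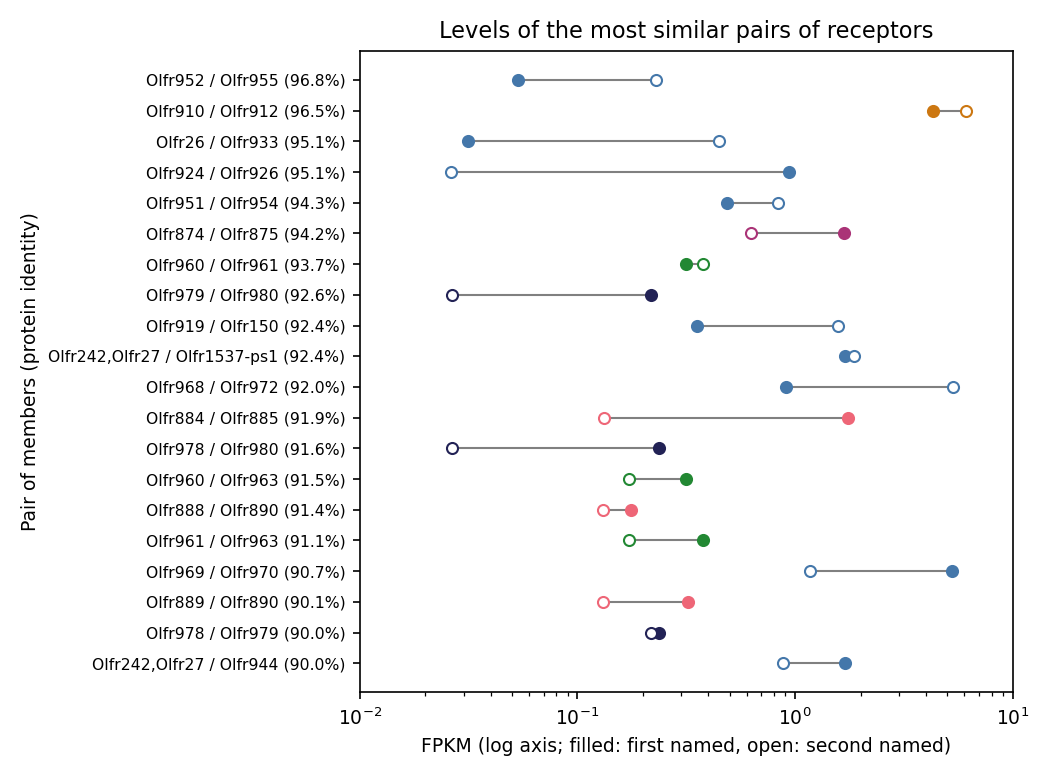
FPKM (log axis) of both receptors in each of the 20 pairs with at least 90% protein identity, ordered by identity and coloured by family as in the plot of levels along the cluster. Filled points are the first receptor named and open points the second; Olfr910 and Olfr912 are both high, and Olfr924 and Olfr926 lie farthest apart.

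In the 5 closest adjacent pairs the higher receptor had from 1.19 to 13.3 times the FPKM of the lower. The 60 coding bases with the most differences are shown for a pair with like levels and for pairs with unlike levels. Within the coding sequence, reads of a pair can be told apart only where such differences fall. Capitals again mark differing positions, and the source and numbering are as above. Olfr960 (bases 70 to 129 of the coding sequence) and Olfr961 (64 to 123) had an FPKM of 0.316 and 0.376.
Olfr960: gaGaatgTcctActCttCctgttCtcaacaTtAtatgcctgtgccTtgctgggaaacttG
Olfr961: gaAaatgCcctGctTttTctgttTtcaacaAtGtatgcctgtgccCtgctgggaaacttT
Olfr874 and Olfr875 (bases 555 to 614 of both) had 1.68 and 0.627, a 2.68-fold difference.
Olfr874: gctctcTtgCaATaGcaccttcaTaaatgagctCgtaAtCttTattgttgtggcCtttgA
Olfr875: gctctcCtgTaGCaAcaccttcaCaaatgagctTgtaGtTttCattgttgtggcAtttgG
Olfr979 and Olfr980 (bases 79 to 138 of both) had 0.217 and 0.0264, an 8.20-fold difference.
Olfr979: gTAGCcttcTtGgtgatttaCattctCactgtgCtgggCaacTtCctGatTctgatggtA
Olfr980: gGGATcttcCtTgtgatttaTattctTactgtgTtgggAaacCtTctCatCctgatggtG
Olfr884 and Olfr885 (bases 866 to 925 of both) had 1.76 and 0.132, a 13.3-fold difference.
Olfr884: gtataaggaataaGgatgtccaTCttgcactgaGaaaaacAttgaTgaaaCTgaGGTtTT
Olfr885: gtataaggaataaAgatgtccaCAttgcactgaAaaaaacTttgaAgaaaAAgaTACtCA
The coding sequences of these 4 pairs differed at 51, 41, 66 and 57 bases in the order shown. Each pair still shared an unbroken run of at least 120 bases. Olfr885 has 1 annotated exon and Olfr884 has 2, while the other receptors of these pairs have 2 or more. Olfr885, Olfr979 and Olfr980 had the status NOTEST.

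The number of annotated exons went with the level inside the cluster. Most receptor genes have 1 or more short non-coding exons before the exon that holds the whole coding sequence. Among 95 members with a GENCODE transcript, 13 with 1 exon had a median FPKM of 0.0315, 64 with 2 exons had 0.514 and 18 with 3 or more had 0.895. None of the 13 single-exon members reached an FPKM of 1, and the highest was Olfr145 at 0.556. Across the 95 members the Spearman correlation between level and exons was 0.486, against 0.381 across 1105 Olfr entries. The number of annotated exons depends on the transcripts behind the annotation.

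The lower level of the cluster was present in each class of exon number. Outside the cluster the medians were 0.10 for 107 entries with 1 exon, 1.16 for 564 with 2 and 1.92 for 339 with 3 or more. Inside it they were 0.0315, 0.514 and 0.895. Of the single-exon entries, 9 of the 13 members and 53 of the 107 outside lay below 0.1. Single-exon models made up 13 of the 97 members and 107 of the 1015 entries outside. Models with 3 or more exons made up 18.6% of the members and 33.4% of the entries outside. Among entries with 2 exons, 23.4% of the members and 55.1% of those outside had an FPKM of at least 1. The part of annotation in the lower level of the cluster was not tested.

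**Figure D4:**
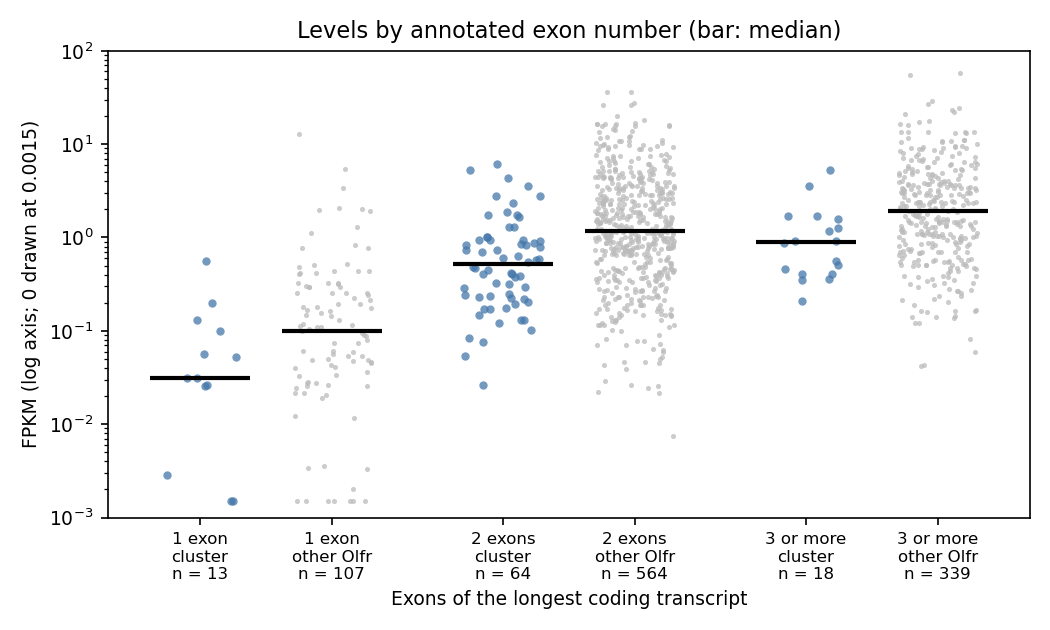
FPKM (log axis, with 0 drawn at the bottom) by the number of exons in the longest coding transcript, for members of the cluster and for Olfr entries outside it. Each point is 1 entry and bars are medians, and the cluster's median is the lower of the pair in each class, at 0.0315, 0.514 and 0.895 against 0.10, 1.16 and 1.92.

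The same held for the type of gene model and for shared sequence. For 64 members the locus in the table is as long as the coding sequence, so that FPKM covers the coding part alone. Their median was 0.395, against 1.13 for 742 such entries outside. The 12 members with a locus longer than 1500 bp had a median of 0.964, against 2.45 for 103 entries outside. Of these 12, 5 belong to MOR165, including Olfr910, Olfr912 and Olfr921. Members with at least 80% unique coding 50-mers had a median of 0.509 (71 members), and those with fewer had 0.365 (24 members). Outside the cluster these medians were 1.14 and 1.25.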

How the data were processed

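Total RNA of 2 samples of adult olfactory epithelium was extracted (Trizol), and libraries followed a TruSeq protocol, per the labels' protocols. FPKM values were deposited by the authors, in 1 column for the whole series. TopHat2, Bowtie2, Cuffdiff and the build mm9 are named in the submitters' processing notes, without versions or roles. The sources used here give no gene annotation, read length, depth or rule for reads that match several genes. Whole reads could not be recovered: for 257 low entries with coding-only models, the best step tried put 27.6% within 0.1 of a whole number, where chance at a fixed step gives 20%. Depth is thus unknown and no counting intervals are given.

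Locus starts were raised by 1, and mm9 coordinates are those of the table. Names, MOR families and promoter windows came from RefSeq (GRCm38.p6), and exons and coding sequences from GENCODE M21 (GRCm38). By symbol 93 members matched RefSeq, 2 matched by another name and 2 did not. A receptor with 2 family names was placed in the first. Clusters were runs of Olfr loci with gaps under 1 Mb. Medians, counts and Spearman correlations were computed with pandas 2.3.3 and SciPy 1.17.1, and protein identities over global alignments with Biopython 1.88. The Spearman correlation and a function with the same rule for unique 50-mers were checked on simulated data. The medians, counts and protein identities were not checked in this way. A 50-mer of the longest coding sequence was unique if no other Olfr transcript held it. Low values were not filtered unless stated: 84 members have an FPKM of at least 0.1.

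The members and lists were chosen with earlier results of these data known. Named were the 12 highest members, those listed at 0 and the 6 lowest above 0, both ends, the receptors beside the widest gap and beside Olfr151 and Olfr160, the extremes of each family of at least 5 members and of each of the 5 position groups, 4 receptors with earlier ligand work, and the 5 closest adjacent pairs. Other receptors, named to complete a family, run or pair, were picked with their values known.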

Additional observations from a re-analysis of the deposited data

How the results depend on the processing

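The cluster's median FPKM of 0.465 was 0.446 without pseudogenes, 0.567 among members at an FPKM of 0.1 or more, 0.509 among members with at least 80% unique 50-mers, 0.395 among coding-only gene models and 0.465 with Olfr151 and Olfr160. It rose to 0.763 among members with the status OK, a setting that drops the 29 low members with NOTEST. In alternatives chosen after seeing the data it was 0.407 for loci of 1500 bp or less and 0.566 for members with 2 or more exons. The count of 22 members at an FPKM of 1 or more was 84 at a threshold of 0.1 and 3 at 5. The Spearman correlation with position was 0.0751 without pseudogenes, 0.104 among members at 0.1 or more and 0.202 among those with at least 80% unique 50-mers. The median step between adjacent members was 0.43 with a pseudocount of 1 and 1.74 with 0.01, which follows from the scale. For pairs of the same family, the median with a pseudocount of 1 was 0.437 for adjacent pairs and 0.535 for pairs farther apart. With 0.01 the order was reversed, at 1.84 and 1.71. Position groups of equal length had medians of 0.323, 0.405, 0.509, 0.465 and 0.756. Grouping by protein identity (60%, single linkage) joined MOR161, MOR162, MOR165, MOR170, MOR171 and smaller families into 1 group of 74 with a median of 0.584, kept MOR224 whole at 0.346 and split MOR223, whose largest group of 3 had 0.217. No paired analysis was possible because both samples carry the wild type label and a receptor has only 1 value. Values without replicate 1 or 2 could not be computed either. Depth is unknown, so the counting error of the low values cannot be stated.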
